A study of Mus musculus with 3 samples.

Results

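Transcripts of 8 complement genes were measured in monocytes from mouse blood. The genes encode the 3 chains of C1q (C1qa, C1qb and C1qc), the central component C3, properdin (Cfp), factor B (Cfb) and the receptors of the anaphylatoxins C3a and C5a (C3ar1 and C5ar1). They were chosen by name, and all 8 were found among the 55536 genes of the tables. The series holds 1 group of 3 total RNA libraries, numbered 1 to 3 as biological replicates, from peripheral blood monocytes of adult C57BL/6J mice aged 5 to 6 weeks. No treatment or genetic change is named, sex was not collected, and the gate by which the cells were isolated was not part of the sources used. The same donor record stands on each library, so the p-values reflect library-to-library spread, some of which may be technical. Each was made from 100 ng of RNA after removal of ribosomal RNA, and no other group exists to compare them with.

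Complement is a cascade of plasma and membrane proteins that marks particles for uptake, recruits leukocytes and perforates membranes. C1q bound to antibody or to cell debris starts the classical pathway, whereas the alternative pathway amplifies itself when factor B binds cleaved C3 and properdin stabilises the resulting convertase. Cleavage of C3 and C5 releases the anaphylatoxins, which signal through G protein-coupled receptors on myeloid cells. The liver makes most circulating C3 and factor B, whereas C1q comes largely from tissue macrophages and dendritic cells, and properdin from leukocytes.

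The depth was 27.2, 26.5 and 19.9 M expected counts in libraries 1, 2 and 3. Levels are given in TPM, a relative abundance per transcript length, where 1 TPM on a 1000-base transcript corresponds to 112, 121 and 76.0 counts. Genes of small nuclear RNAs held 60.8%, 60.0% and 60.5% of the TPM of all genes in libraries 1, 2 and 3, and protein-coding genes held 10.9%, 9.84% and 10.7%. On the authors' scale 1 TPM thus equals 9.16, 10.2 and 9.34 TPM on a scale that sums over protein-coding genes alone. Of the 12 monocyte markers examined, among them the growth factor receptor gene Csf1r and the lysozyme gene Lyz2, 11 were above 1 TPM in the test described below. So were all 12 markers of non-classical monocytes, and of 10 markers of classical monocytes 7 were above and 1 below. Among other cells, all 10 NK cell markers, 7 of 10 B cell markers and 3 of 10 T cell markers were also above. Of the 12994 protein-coding genes tested, 7020 were above. Marker sums of other cells differed by library, with NK cell genes at 747, 647 and 1820 TPM and basophil, eosinophil and mast cell genes at 33.9, 35.2 and 6.69 TPM in libraries 1, 2 and 3. In such bulk samples, fewer cells of a type and less RNA per cell cannot be told apart.

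C3 was the most abundant of the 8 transcripts, the genes for properdin and the C5a receptor lay between 1 and 2 TPM, factor B lay under 0.5 TPM, and the C1q chains were at or near 0. The C3a receptor gene was near 1 TPM in libraries 1 and 2 and at 0.19 TPM in library 3. Each gene's level was tested against 1 TPM with edgeR's quasi-likelihood test over the 17664 genes whose counts summed to at least 10, of which 43.2% were above and 6.36% below 1 TPM at a Benjamini-Hochberg adjusted p of 0.05. Of the 8 genes, 5 reached that count, 1 (C3) was above 1 TPM and 0 were below, and the other 4 passed in neither direction. Those 4 had unadjusted p-values of 0.122 (Cfp), 0.122 (Cfb), 0.551 (C3ar1) and 0.101 (C5ar1), so 0 of them were under 0.05. The C1q genes did not reach the count and were not tested, and without that filter 0 of the 8 were below as well. With few counts the test can miss a low level. C1rl, a classical pathway gene at 0.02 TPM in each library, passed in neither direction (edgeR quasi-likelihood, Benjamini-Hochberg adjusted p = 0.132). A lack of a call is therefore not a level near 1 TPM. On the protein-coding scale 4 of the 8 were above 1 TPM, with 12092 of all genes above and 1 below, against 7639 above and 1124 below on the authors' scale. The median level of the 8 genes was 0.557 TPM. That of all protein-coding genes, 35.1% of which had 0 counts in all libraries, was 0.14 TPM, and that of the protein-coding genes tested was 2.09 TPM.

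**Figure D1:**
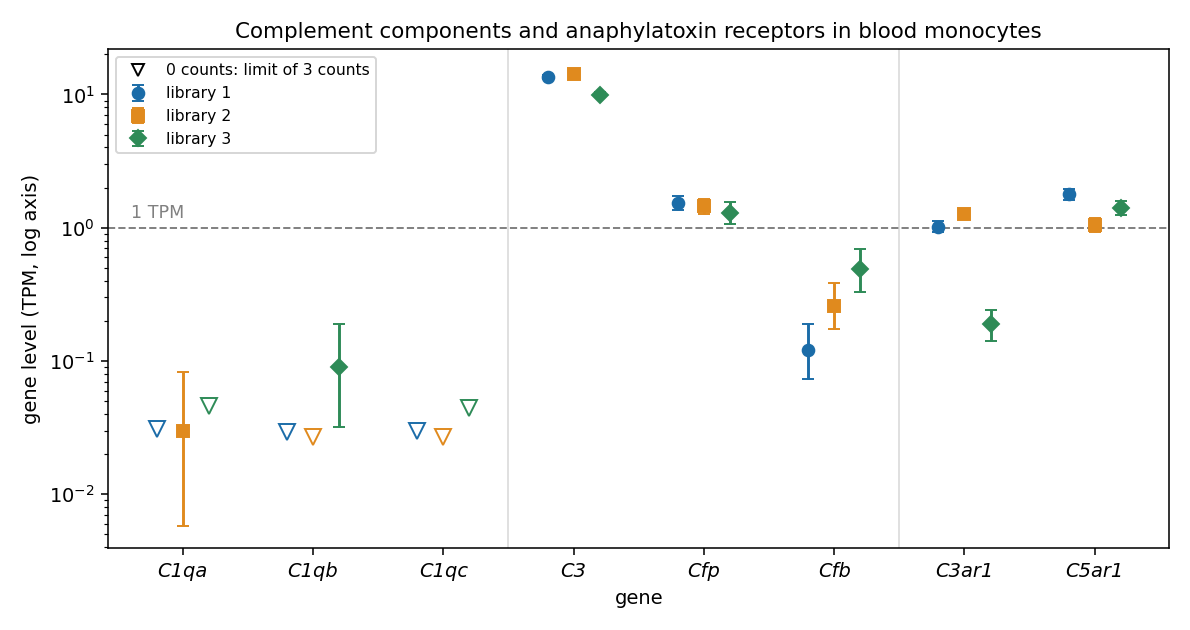
TPM of each gene (log axis) in libraries 1, 2 and 3; bars are exact 95% Poisson intervals for counting error, open triangles mark 0 counts at the level that 3 counts would give, and the dashed line is 1 TPM. C3 sits between 9.96 and 14.21 TPM, the C1q genes are at 0.09 TPM or less, and C3ar1 is lower in library 3 than in the other two.

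The C1q genes encode the A, B and C chains that assemble into the recognition molecule of the classical pathway. They lie side by side on chromosome 4 (mm10), all on the minus strand: C1qb (ENSMUSG00000036905.8) at chr4:136880129-136886187, C1qc (ENSMUSG00000036896.5) at chr4:136889804-136893065 and C1qa (ENSMUSG00000036887.5) at chr4:136895917-136898803. C1qa had 0, 3 and 0 expected counts in libraries 1, 2 and 3, C1qb had 0, 0 and 6, and C1qc had 0 in each library. Thus 7 of 9 values were 0, and the chains with a count had it in different libraries. The 3 counts of C1qa in library 2 gave 0.03 TPM (95% Poisson interval 0.0058 to 0.082), and the 6 counts of C1qb in library 3 gave 0.09 TPM (0.032 to 0.19). For C1qc, whose count was 0 throughout, the limit of 3 counts was 0.030, 0.027 and 0.044 TPM. These intervals and limits cover counting error only. In the authors' separate transcript table, C1qa had 6 estimated counts in library 2, C1qb had 6 in library 3, and C1qc had 0 in each. At this depth the 3 chains could not be ordered, and a count of 0 in all libraries was also found for 35.1% of protein-coding genes.

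Markers of tissue macrophages were mostly low in the same libraries, and those of dendritic cells were mixed. Of the 12 genes in the tissue macrophage list, 6 had 0 counts in all libraries, among them the genes for the receptors Timd4, Marco and Vsig4. Adgre1, which encodes the F4/80 antigen and is also found on monocytes, stood at 40.30, 30.80 and 20.10 TPM, and the other 11 genes summed to 0.85, 0.50 and 0.37 TPM. Of the 10 dendritic cell genes 2 were above 1 TPM and 3 below, beside 43.2% and 6.36% of all genes tested. The 2 above were Cd209a, a lectin gene, at 3.19, 2.89 and 1.30 TPM and Ccr7, a chemokine receptor gene, at 3.27, 2.74 and 1.37 TPM. The dendritic cell list summed to 8.69, 6.84 and 4.44 TPM. The 7 liver genes matched, including those for albumin and transthyretin, had 0 counts in all 3 libraries.

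The upstream sequences of 3 genes are shown for what the genes stand for in the results: C3 is the most abundant, C1qb is one of the C1q chains near 0, and C3ar1 is the gene with the widest range over the libraries. Each is the run of 250 bases before the RefSeq start (GRCm38.p6), read 5′ to 3′ on the minus strand, at chr17:57228137-57228386, chr4:136886201-136886450 and chr6:122856158-122856407. Both strands were searched for 4 short motifs, and capitals mark the match. One was the TATA box, TATAAA, and another the box with the letters CCAAT. The third was the core of sites bound by PU.1 and related ETS factors, written GAGGAA. The last was a C/EBP site, written TTGCNNAA, where N is any base.
C3: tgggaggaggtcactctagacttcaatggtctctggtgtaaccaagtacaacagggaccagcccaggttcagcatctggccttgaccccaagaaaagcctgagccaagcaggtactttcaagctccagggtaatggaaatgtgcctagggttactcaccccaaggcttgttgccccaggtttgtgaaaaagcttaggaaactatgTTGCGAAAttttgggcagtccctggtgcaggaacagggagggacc
C1qb: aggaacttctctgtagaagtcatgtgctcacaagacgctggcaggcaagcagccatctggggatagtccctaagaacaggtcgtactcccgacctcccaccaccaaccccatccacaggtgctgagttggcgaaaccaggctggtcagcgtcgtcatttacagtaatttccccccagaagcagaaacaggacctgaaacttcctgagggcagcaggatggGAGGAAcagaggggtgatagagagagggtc
C3ar1: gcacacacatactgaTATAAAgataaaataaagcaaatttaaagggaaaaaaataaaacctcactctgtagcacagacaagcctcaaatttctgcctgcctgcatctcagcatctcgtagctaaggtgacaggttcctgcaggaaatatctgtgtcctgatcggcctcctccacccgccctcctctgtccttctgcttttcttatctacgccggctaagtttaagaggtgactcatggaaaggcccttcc
The match in C3 is TTGCGAAA, which begins 45 bases before the start, and 9.56% of the 32851 upstream windows of that length hold such a match. In C1qb, GAGGAA begins 30 bases before the start, against 23.3% of all windows with that motif, and in C3ar1, TATAAA begins 235 bases before it, against 12.4%. RefSeq sequence was matched for 6 of the 8 genes, and in the other 3 of those C1qc held GAGGAA, C5ar1 held CCAAT (present in 33.8% of windows) and Cfp held none of the 4. No binding was measured, and a match describes letters only.

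C3 (ENSMUSG00000024164.15), whose product is cleaved by every pathway of the cascade, lies on the minus strand at chr17:57203970-57228136. Its level was 13.59, 14.21 and 9.96 TPM in libraries 1, 2 and 3 from 3458, 3346 and 2330 expected counts, a mean of 12.6 ± 2.30 TPM (SD, n = 3). Library 3 was the lowest and the other two were close together. The level exceeded that of 93.2%, 94.4% and 89.6% of protein-coding genes in libraries 1, 2 and 3. Its fitted level was 3.65 above 1 TPM on the log2 scale (edgeR quasi-likelihood, Benjamini-Hochberg adjusted p = 6.98e-10, above in 3 of 3 libraries), and it stayed above 1 TPM under each alternative setting run, with adjusted p between 3.20e-28 and 9.17e-06.

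The gene level of C3 joined transcripts of very different length. The full-length transcript, of 5136 bases and 41 exons, took 94.1%, 91.5% and 97.6% of the gene's counts in libraries 1, 2 and 3. The annotation also holds short coding transcripts of 554 bases in 8 exons and of 315 bases in 4 exons, each marked as incomplete at an end or both, and together these took 5.86%, 8.53% and 2.45% of the counts. Because TPM divides by length, these few counts made up 57.1%, 64.3% and 39.4% of the gene's TPM. The full-length transcript alone stood at 5.84, 5.07 and 6.04 TPM, a mean of 5.65 ± 0.512 TPM (SD, n = 3). The short transcripts together stood at 7.76, 9.15 and 3.92 TPM, a mean of 6.94 ± 2.71 TPM (SD, n = 3). In TPM, library 3 was therefore the highest for the full-length transcript and the lowest for the short ones. In the authors' separate transcript table the full-length transcript was at 9.44, 7.99 and 10.5 TPM, again highest in library 3. Relative to the median protein-coding gene of 1 TPM or more, however, the values of 5.84, 5.07 and 6.04 TPM put library 3 slightly lowest. It was at -0.16 against library 1 and -0.12 against library 2 on the log2(TPM + 0.1) scale. A miRNA gene within C3 on the same strand, Mir6978, had 0 counts in all libraries.

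**Figure D2:**
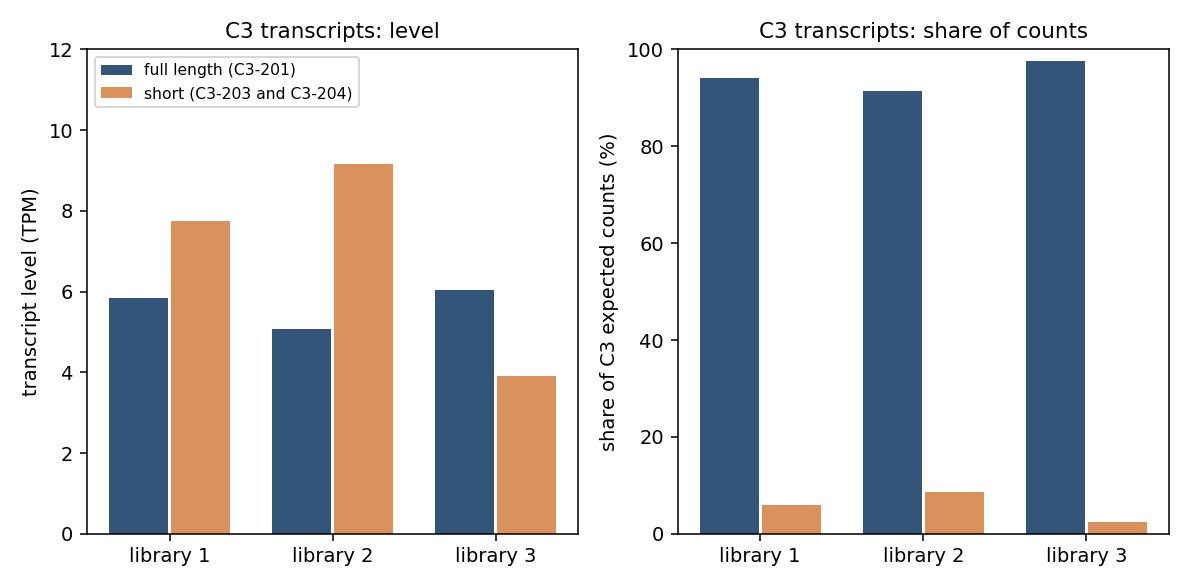
C3 transcripts in each library, as level in TPM (left) and as share of the gene's expected counts in % (right); dark bars are the full-length transcript and light bars the sum of the transcripts of 554 and 315 bases. The short transcripts hold between 2.45% and 8.53% of the counts but stand at 7.76, 9.15 and 3.92 TPM.

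Cfp (ENSMUSG00000001128.7) encodes properdin, the positive regulator of the alternative pathway, and lies on the minus strand at chrX:20925454-20931555. It stood at 1.54, 1.45 and 1.30 TPM in libraries 1, 2 and 3 from 253, 259 and 109 expected counts, a mean of 1.43 ± 0.121 TPM (SD, n = 3). The libraries lay close together and all exceeded 1 TPM, yet the test did not separate Cfp from 1 TPM (log2 level 0.52, edgeR quasi-likelihood, Benjamini-Hochberg adjusted p = 0.176). Against 0.5 TPM it was called above (adjusted p = 0.000573, same test). The coding transcript of 1636 bases took all counts in libraries 1 and 2 and 94.5% in library 3, where 5.99 counts assigned to a non-coding transcript of 401 bases made 28.5% of the gene's TPM. The coding transcript alone was at 1.54, 1.45 and 0.93 TPM, so that on this transcript library 3 was under 1 TPM.

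Cfb (ENSMUSG00000090231.10) encodes factor B, the protease zymogen of the alternative convertase, and lies on the minus strand at chr17:34856374-34862518. It stood at 0.12, 0.26 and 0.49 TPM from 19, 26 and 31 expected counts, a mean of 0.29 ± 0.187 TPM (SD, n = 3). Library 3 was the highest and library 1 the lowest, and all 3 were under 1 TPM. The fitted log2 level of -1.79 was not separated from 1 TPM by edgeR's quasi-likelihood test (Benjamini-Hochberg adjusted p = 0.176), whereas limma on log2(TPM + 0.1) called it below (adjusted p = 0.0130). An incomplete transcript of 887 bases, over exons 12 to 18 of 18, held 28.6%, 84.4% and 75.9% of the counts in libraries 1, 2 and 3. The rest went to a transcript of 2397 bases over all 18 exons, at 0.05, 0.01 and 0.04 TPM. Gm20547, a coding gene on the same strand that runs over Cfb and is identical to it over 2248 bases, had 0 counts in all libraries. How the authors' counting divided reads between Cfb and Gm20547 makes the level of Cfb uncertain. Mir6972, within Cfb on the same strand, also had 0 counts.

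C3ar1 (ENSMUSG00000040552.8) encodes the receptor of C3a and lies on the minus strand at chr6:122847138-122856161, with a single annotated transcript of 4305 bases. It stood at 1.02, 1.26 and 0.19 TPM in libraries 1, 2 and 3 from 474, 635 and 58 expected counts, a mean of 0.823 ± 0.561 TPM (SD, n = 3). Library 3 stood well under libraries 1 and 2, and its 95% Poisson interval of 0.141 to 0.239 TPM did not reach theirs, of which the lower bounds were 0.932 and 1.17 TPM. The level was not separated from 1 TPM (log2 level -0.28, edgeR quasi-likelihood, Benjamini-Hochberg adjusted p = 0.590), and without library 3 the fitted level was 0.19 (adjusted p = 0.522). The separate transcript table gave 1.73, 2.01 and 0.315 TPM, again lowest in library 3.

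C5ar1 (ENSMUSG00000049130.6) encodes the signalling receptor of C5a and lies on the minus strand at chr7:16246743-16259540. It stood at 1.78, 1.05 and 1.41 TPM from 460, 296 and 249 expected counts, a mean of 1.41 ± 0.365 TPM (SD, n = 3). All libraries exceeded 1 TPM, with library 1 the highest and library 2 the lowest. The level was not separated from 1 TPM (log2 level 0.50, edgeR quasi-likelihood, Benjamini-Hochberg adjusted p = 0.155) but was above 0.5 TPM (adjusted p = 0.000291). The transcripts that received the counts differed between libraries. A transcript of 2481 bases in 3 exons took all counts in libraries 1 and 2, whereas in library 3 it took 52.2% and one of 2540 bases in 2 exons took 47.8%. The 3-exon transcript was thus at 1.78, 1.05 and 0.75 TPM, and the 2-exon transcript at 0, 0 and 0.67 TPM. In the separate transcript table the 2-exon transcript held 257 of 288 estimated counts in library 3 and 0 in libraries 1 and 2. The other C5a receptor gene, C5ar2, was at 0.84, 0.66 and 0.30 TPM and was called neither above nor below 1 TPM (edgeR quasi-likelihood, Benjamini-Hochberg adjusted p = 0.154).

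In order of mean level the genes ran C3, Cfp, C5ar1, C3ar1, Cfb, C1qb, C1qa and C1qc. Within libraries, C3 exceeded Cfp by 3.06, 3.21 and 2.85 on the log2(TPM + 0.1) scale, a mean of 3.04 ± 0.182 (SD, n = 3) or 8.21-fold, larger than its spread. With the full-length transcript of C3 alone the difference from the gene level of Cfp was 1.91 ± 0.203 (SD, n = 3), or 3.76-fold. That gene level of Cfp includes 0.37 TPM of a non-coding transcript in library 3. Cfp and C5ar1 did not differ beyond their spread (0.041 ± 0.340, higher in 1 of 3 libraries), nor did C5ar1 and C3ar1 (0.96 ± 1.32, higher in 2 of 3), or C3ar1 and Cfb (1.08 ± 1.84, higher in 2 of 3). In library 2 C3ar1 was above C5ar1, and in library 3 it was below Cfb, so the middle of the order changed with the library. Cfb was above C1qb in each library, its lowest value of 0.12 TPM lying just over the highest of C1qb, 0.09 TPM. The C1q chains differed by no more than a few counts. Over 8 pairs compared with an exact two-sided sign-flip test, the smallest p that 3 libraries allow is 0.25, which C3 against Cfp and Cfb against C1qb reached, and every Benjamini-Hochberg adjusted p was 1.0.

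The scale itself moved between libraries. On the log2(TPM + 0.1) scale, the median protein-coding gene of 1 TPM or more (8302 genes) was higher in library 3, by 0.21 than in library 1 and by 0.37 than in library 2. Relative to that median, C3ar1 was at -2.16 in library 3 against library 1 and at -2.60 in library 3 against library 2, while library 2 against library 1 gave 0.44. Its range over the libraries, 2.60, was wider than that of 96.2% of the 2900 protein-coding genes with a mean level of 0.5 to 2 TPM, whose median range was 0.843. Without library 3 that range was 0.44. C3 differed by -0.65 and -0.88 between library 3 and libraries 1 and 2, but its full-length transcript alone differed by -0.16 and -0.12. At the gene level Cfp differed by -0.44 and -0.52, near the median of the 12 monocyte markers (-0.42 and -0.46). Among these, Lyz2 (-1.22 and -1.16), Ctss (-1.30 and -1.03) and Spi1 (-1.24 and -0.95) lay lower. In library 3 the gene level of Cfp includes 0.37 TPM of a non-coding transcript. Its coding transcript alone, at 1.54, 1.45 and 0.93 TPM in libraries 1, 2 and 3, fell further than the gene level did. C5ar1 differed by -0.52 from library 1 and by 0.023 from library 2. Cfb ran the other way, at 1.21 and 0.34, on at most 31 counts.

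Markers of other blood cells moved between the same libraries. Relative to the same median, all 8 basophil, eosinophil and mast cell markers with a mean of 1 TPM or more were lower in library 3 than in both others (median -2.26 and -2.10), with the list sums given above. Epx, the eosinophil peroxidase gene of that list, had 0 counts in each library, and Ccr3, an eosinophil and basophil chemokine receptor gene, stood at 12.43, 11.61 and 0.17 TPM. Of the 5 neutrophil markers at that level 4 were lower in library 3 (median of the 5, -2.79 and -2.51), with Ly6g, the antigen used to sort neutrophils, at 0 counts throughout. The neutrophil list summed to 142, 128 and 9.67 TPM in libraries 1, 2 and 3, of which the resistin-like gene Retnlg made 124.45, 114.09 and 0 TPM. Without Retnlg the sums were 17.9, 13.7 and 9.67 TPM, and Csf3r, the G-CSF receptor gene, stood at 5.99, 6.64 and 8.09 TPM. Erythroid markers were lower in library 3 (6 of 6), and all genes of that list together reached 3535, 3328 and 263 TPM in libraries 1, 2 and 3. This total was larger than that of the monocyte markers in libraries 1 and 2 (2700 and 2279 TPM). In library 3 it was smaller (monocyte markers, 1617 TPM). NK cell markers (10 of 10) and platelet markers (7 of 7) were instead higher in library 3. The part of these cells in the level of C3ar1 was not tested.

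**Figure D3:**
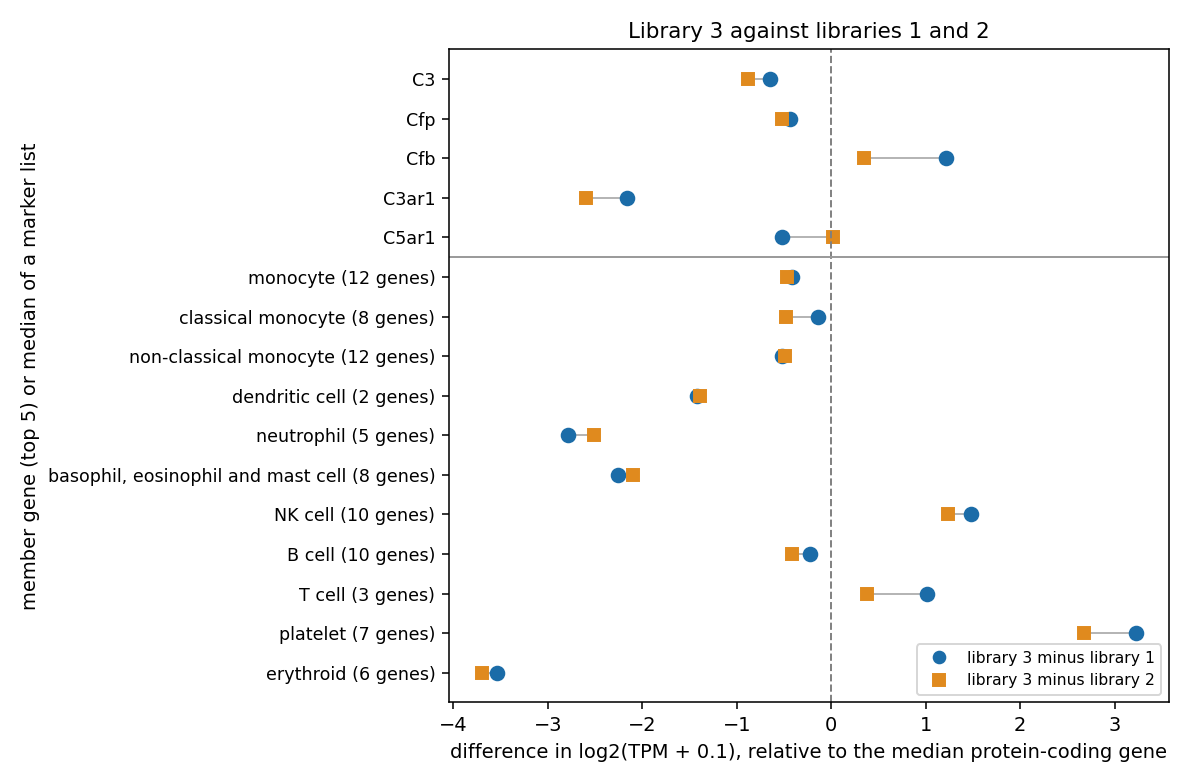
Difference in log2(TPM + 0.1) of library 3 from library 1 (circles) and from library 2 (squares), relative to the median protein-coding gene, for 5 complement genes (top) and as the median of each marker list (below the line). C3ar1 lies at -2.16 and -2.60. The basophil, eosinophil and mast cell list (-2.26 and -2.10), the neutrophil list (-2.79 and -2.51) and the erythroid list (-3.54 and -3.70) are also low. So is the dendritic cell list (-1.42 and -1.39), and the monocyte list lies at -0.42 and -0.46. The NK cell list (1.48 and 1.24), the T cell list (1.01 and 0.38) and the platelet list (3.23 and 2.68) are high.

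The genes nearest in profile over the 3 libraries were taken from 3867 protein-coding genes of 5 TPM or more, by Euclidean distance between centred log2(TPM + 0.1) values. With 3 libraries such likeness is weak, and many genes matched C3 (412 within a distance of 0.25), Cfp (888) and C5ar1 (316). Nearest to C3 were Txnl1 and Cdc42se2, to Cfp were Nek7 and Sfr1, and to C5ar1 were Crem and Ndufa13. C3ar1 had 5 genes within that distance, with Csf1, the gene of a macrophage growth factor, nearest at 8.01, 10.29 and 1.87 TPM, followed by Rab44 at 8.74, 9.22 and 2.05 TPM. Cfb had 13, with the chaperone gene Hsph1 nearest at 2.89, 4.60 and 7.94 TPM, followed by Chd6 at 3.15, 4.78 and 8.33 TPM. The C1q genes had too few counts to be placed.

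Beyond these 8, 49 other genes of the complement system were examined, of which 25 reached the count for testing, 9 were above and 4 below 1 TPM, beside 43.2% above and 6.36% below over all genes tested. Of the 12994 protein-coding genes tested, 7020 were above and 783 below. A further 20 of the 49 had 0 counts in all libraries, as did 61.4% of all genes and 35.1% of protein-coding genes. Of the genes above, 8 were receptors or cell-surface regulators. Of the 8 other classical pathway genes 0 were above and 1 was below. The protease genes C1s1 and C1s2 had 0 counts, and C4b, a C4 gene, was called below at 0.02, 0.06 and 0.02 TPM. That call was lost when any 1 library was left out (adjusted p between 0.0625 and 0.142, edgeR quasi-likelihood) and with DESeq2's Wald test (adjusted p = 0.164). C4a stood at 0.69, 0.54 and 0.23 TPM and was called in neither direction (edgeR quasi-likelihood, Benjamini-Hochberg adjusted p = 0.249). C4a and C4b are 96.0% identical over 5378 bases, so the division of reads between them is uncertain. Of the 9 lectin pathway genes 6 had 0 counts, including the ficolin genes Fcna and Fcnb, and Colec12, a scavenger receptor collectin, was below at 0.18, 0.09 and 0.22 TPM, a call lost with DESeq2's Wald test (adjusted p = 0.439). Cfd, the protease that activates factor B, had 0 counts in all libraries, and so did 4 of the 7 terminal pathway genes, of which 0 were above or below.

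Of the 9 soluble regulators 1 was above and 0 below 1 TPM, against 43.2% and 6.36% of all genes tested. A count of 0 in all libraries was found for 5, including those for C1 inhibitor (Serping1) and factor I (Cfi). Clu, the clusterin gene, stood at 0.29, 0.36 and 7.30 TPM and passed in neither direction (edgeR quasi-likelihood, Benjamini-Hochberg adjusted p = 0.0901). It was high only in library 3, in which platelet markers summed to 106 TPM, against 18.0 and 13.2 TPM in libraries 1 and 2, and the part of platelets in its level was not tested.

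Among the 6 membrane regulators, which protect host cells from complement, 2 were above and 1 below. Over all genes tested 43.2% were above and 6.36% below. Cr1l, the gene of the rodent regulator Crry, was the higher at 25.41, 22.31 and 23.16 TPM, and Cd55, decay-accelerating factor, stood at 8.07, 8.16 and 9.63 TPM. Both exceeded 1 TPM in all 3 libraries, and their values lay close together. Crry-ps, a pseudogene 96.6% identical to Cr1l over 1320 bases, was at 0.24, 0.45 and 0.16 TPM, and reads may have been divided between them. Cd46, a regulator largely limited to the testis in mice, was below at 0.20, 0.48 and 0.46 TPM, a call lost without library 1 (edgeR quasi-likelihood, Benjamini-Hochberg adjusted p = 0.144), with the M4 gene tables (adjusted p = 0.155, same test) and with DESeq2's Wald test (adjusted p = 0.544).

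Of the 9 other receptors 6 were above 1 TPM and 1 below, beside 43.2% above and 6.36% below over all genes tested. The subunits of the phagocytic receptors for cleaved C3 stood high: Itgb2, their shared beta chain, at 111.78, 96.92 and 122.53 TPM, Itgam, the alpha chain of CR3, at 46.90, 39.28 and 53.55 TPM, and Itgax, the alpha chain of CR4, at 19.86, 21.53 and 32.54 TPM. Each was highest in library 3 in TPM. Relative to the median protein-coding gene, library 3 differed from libraries 1 and 2 by -0.076 and -0.032 for Itgb2, -0.018 and 0.076 for Itgam, and 0.50 and 0.22 for Itgax. Calr and Lrp1, whose products form a receptor for collagen-like tails such as that of C1q, stood at 113.26, 97.09 and 133.95 TPM and at 17.99, 13.80 and 22.60 TPM. Cr2, a complement receptor best known from B cells, was above at 1.37, 3.36 and 0.90 TPM, a call lost without library 2 (edgeR quasi-likelihood, Benjamini-Hochberg adjusted p = 0.677), with limma on log2(TPM + 0.1) (adjusted p = 0.173) and with DESeq2's Wald test (adjusted p = 0.478). The B cell markers examined summed to 101, 102 and 97.5 TPM in libraries 1, 2 and 3, and the part of B cells in the level of Cr2 was not tested. Cd93 was below at 0.50, 0.55 and 0.50 TPM, and lost that call without library 1 (edgeR quasi-likelihood, adjusted p = 0.131), without library 2 (same test, adjusted p = 0.0727), with limma on log2(TPM + 0.1) (adjusted p = 0.0862) and with DESeq2's Wald test (adjusted p = 0.628). Vsig4, the receptor of tissue macrophages for cleaved C3, had 0 counts in all libraries.

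**Figure D4:**
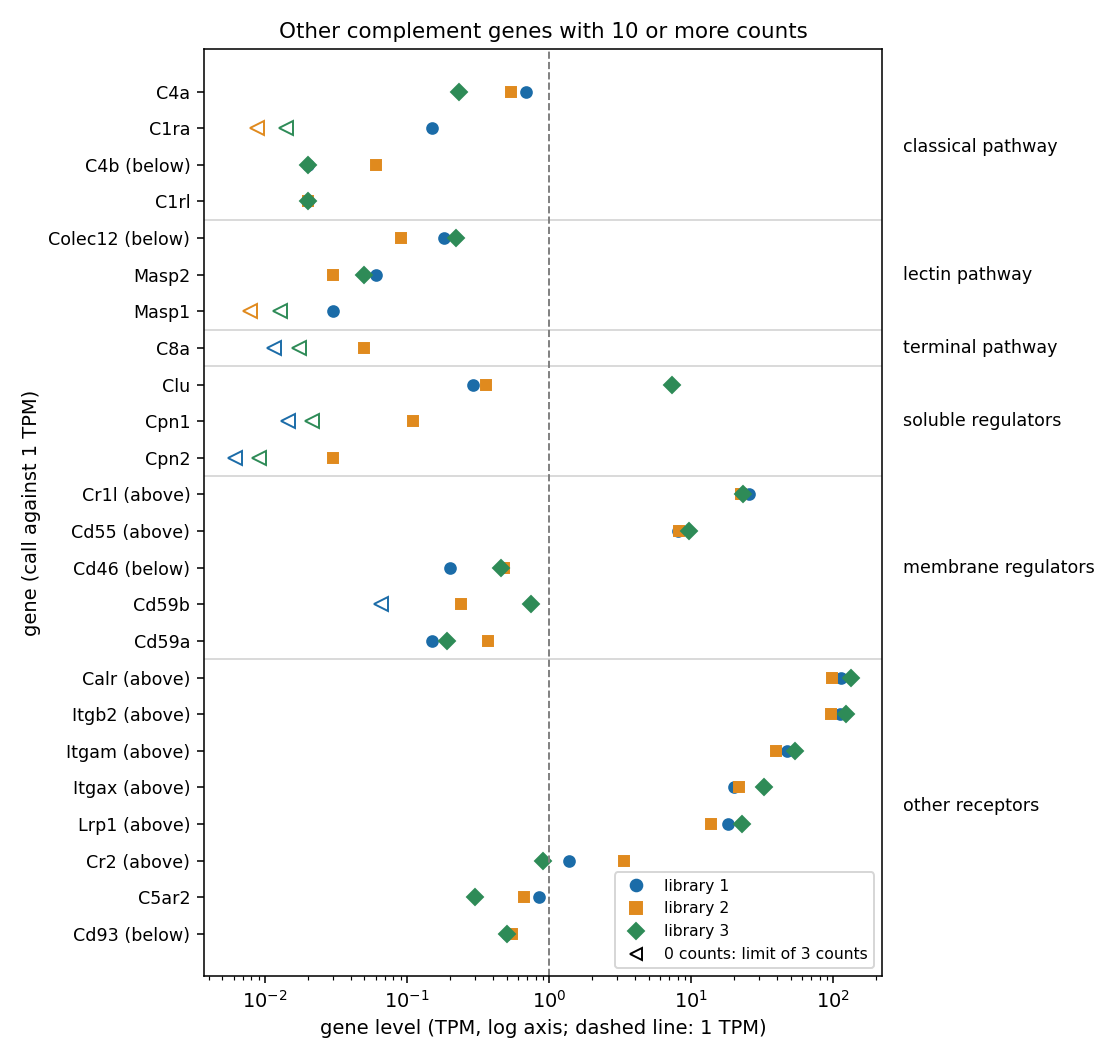
TPM (log axis) of 24 other complement genes that reached 10 counts over libraries 1, 2 and 3, grouped by role; open triangles mark 0 counts at the level that 3 counts would give, and the call against 1 TPM stands beside each name. The genes above that are shown are receptors and membrane regulators, from Cr2 at 0.90 to 3.36 TPM to Calr at 97.09 to 133.95 TPM.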

How the data were processed

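Gene and transcript tables of 3 total RNA libraries were used. Per the labels, libraries were made with a ScriptSeq kit, and fragment sizes were 200 to 594, 200 to 491 and 200 to 1000 bp in libraries 1, 2 and 3. Per the accompanying notes, the authors quantified reads on mm10 with GENCODE M21, and again with M4. The deposited expected counts are the authors' estimated numbers of reads and need not be whole. The deposited TPM values were scaled by the authors over all rows of a table. A further deposited transcript table gives estimated counts and TPM made directly from the reads. The sources used here do not give the programs or the strand setting. Values of effective length, the length by which the authors' TPM divides, gave the count that 1 TPM stands for, and 3471 genes with an effective length of 0 in a library were left out. Rows that name no gene held at most 0.000258% of counts and stayed out of the tests.

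Rounded expected counts entered an intercept-only fit in edgeR 4.0.16 (glmQLFit, F computed from the deviances), with 1 TPM as offset, a two-sided test, a summed count of 10 or more and Benjamini-Hochberg adjustment at 0.05. Alternatives used DESeq2 1.42.0, limma 3.58.1, other scalings, levels, filters and pseudocounts, the M4 tables, and each library left out. The libraries differed beyond counting noise (chi-square per degree of freedom of 27.2 between libraries 1 and 2, 122 between 1 and 3 and 128 between 2 and 3), and each was counted as 1 replicate. Similar transcripts were sought with BLAST+ 2.17.0 at 95% identity over 100 bases or more. The genes, lists and tests were chosen with earlier results of these data known. All 8 genes are named, as are other complement genes called above or below 1 TPM (1 of these is not reported here), the 2 genes nearest in profile to each and overlapping genes. The full-length transcript of C3 was compared with Cfp after seeing the data. Clu, C4a, C5ar2, C1rl, Cpn2, Masp1, list members at 0 counts and the markers quoted were named after their values were seen.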

Additional observations from a re-analysis of the deposited data

How the results depend on the processing

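C3 was above 1 TPM under all 13 alternatives, and Cfp, C5ar1, C3ar1 and Cfb changed call or direction under some. On the TPM of protein-coding genes 12092 genes were above and 1 below, with 4 of the 8 complement genes above, and 14 other complement genes above and 0 below. On that scale C3ar1 was at 3.00 and Cfb at 1.47, and Colec12 (0.59), Cd46 (1.88) and Cd93 (2.30) turned positive. DESeq2's Wald test called 226 genes below and, of the other complement genes, 2 (Cpn2 and Masp1), neither of them called in the main test, while C4b, Colec12, Cd46, Cd93 and Cr2 lost their calls. With limma on log2(TPM + 0.1), 6290 genes, 1 complement gene (Cfb) and 12 others were below, and with a pseudocount of 1 the counts were 6737, 1 and 14. Against 0.5 TPM, 3 of the 8 were above, 176 genes and 1 other complement gene were below, and C3ar1 (0.72) and Cd93 (0.039) turned positive, while Colec12 (adjusted p = 0.0507) and Cd46 (adjusted p = 0.434) lost their calls. Against 2 TPM, 3398 genes and 7 other complement genes were below, and Cfp (-0.48), C5ar1 (-0.50) and Cr2 (-0.091) turned negative. Leaving out 1 library gave 7240 to 7559 genes above and 256 to 1087 below (256 without library 1, 381 without library 2). It left 1 of the 8 genes above in each case, 9 to 10 other complement genes above and 1 to 3 below, and put C3ar1 between -0.73 and 0.19 (0.19 without library 3). The difference of Cfp minus C5ar1 turned to -0.30 with TPM summed over the separate transcript table, and over libraries left out ran from -0.15 to 0.16. The range over libraries with a pseudocount of 1 was 0.77 for C3, 1.23 for C3ar1 and 0.30 for Cfb. Chosen after seeing the data, the range was 0.16 for the full-length transcript of C3 alone and 1.35 for the 3-exon transcript of C5ar1 alone. With each library left out it ran from 0.22 to 0.88 (C3), 0.078 to 0.52 (Cfp), 0.024 to 0.55 (C5ar1), 0.44 to 2.60 (C3ar1) and 0.34 to 1.21 (Cfb). The cause of these changes was not tested. No paired analysis was possible because the series holds 1 group. Depth limits the C1q chains and Cfb, with at most 31 counts in a library.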

Other observations

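C2, the classical pathway gene next to Cfb on chromosome 17, had 0 expected counts in the gene tables of all 3 libraries. In the authors' separate transcript table its non-coding transcript of 850 bases had 63.8 and 67.8 estimated counts in libraries 1 and 3 and 0 in library 2, and another of 535 bases, also non-coding, had 22.0 in library 2. The coding transcripts of C2 had 0 estimated counts in that table. Likewise, in library 3 the counts of Cfb were assigned in the separate table to transcripts of 973 bases (27.9) and 2397 bases (16.1), whereas the main tables gave the transcript of 973 bases 0 counts and that of 887 bases 23.5.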
